A study of Drosophila melanogaster with 2 samples.

Results

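Myb-GFP binding was described here at 34 genes of the DNA damage response and DNA repair, out of 13945 protein-coding genes on 6 chromosome arms. The genes came from a list of 35 names, of which timeless matched no gene symbol of the annotation and is not analysed here. The material was embryos of a transgenic Drosophila melanogaster line that stably expresses Myb with GFP at its C terminus, collected between 0 and 24 h of age with the sexes pooled. Chromatin of 2 biological replicates was immunoprecipitated with an antibody against GFP. Both replicates belong to 1 group from 1 fly line, and no control or untagged sample was analysed here, so no background was measured in the same way. Whole embryos hold many cell types and stages, and a peak does not tell in which of them Myb-GFP was bound. The promoter that drives the fusion is not given in the sources used here.

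The DNA damage response detects broken or stalled DNA, halts the cell cycle and calls in repair. Checkpoint kinases relay the signal, end joining and homologous recombination mend double-strand breaks, mismatch and excision repair replace wrong or damaged bases, and the Fanconi pathway undoes crosslinks between strands. Early fly embryos divide very rapidly, and their checkpoint kinases are needed when these divisions slow. Myb is a subunit of Myb-MuvB, a complex known for activating genes of mitosis in dividing cells. Its Mip120 subunit binds the cell cycle homology region (CHR), and Myb binds its own site.

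A gene is called bound here when a summit of the submitters' called peak set lies within 500 bp of any of its transcription start sites (TSSs). Peak signal is the strength that the submitters gave each peak, on a scale that is not stated and that belongs to each list. The called set held 6100 peaks, which were the strongest peaks of a relaxed list of 30000 made from the pooled alignments, with 93.9 as the lowest called signal. Each replicate also had a relaxed list of 30000 peaks. Read depth is unknown, because the lists hold no read counts.

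Sequence at the summit is shown for 1 bound gene in each of 5 of the 6 repair classes, to let stretches with and without known words be compared. It is the strongest bound gene of its class, except that mus81 stands for homologous recombination, where Brca2 was stronger. The windows of lok and PolQ were added because of the words in them, after these had been seen. A word on the minus strand appears as its reverse complement. Each window has 201 bases centred on the summit and gives the plus strand of build dm6, as held in the RefSeq sequence of the same assembly. Capitals mark the words searched on both strands, namely CAACGG or TAACGG (Myb site), TTCGAA or TTTGAA (CHR), TATCGATA (DREF) and TTTCCCGC or TTTGGCGC or TTTCGCGC (E2F). No words shared bases in these 7 windows. The windows are chr2L:16680416-16680616 for grp, chr2L:15771085-15771285 for Ku80, chr3R:21481980-21482180 for Fancm, chrX:940903-941103 for mus81, chr3L:15158718-15158918 for Msh6, chr2L:20061125-20061325 for lok and chr3R:12712522-12712722 for PolQ.
grp: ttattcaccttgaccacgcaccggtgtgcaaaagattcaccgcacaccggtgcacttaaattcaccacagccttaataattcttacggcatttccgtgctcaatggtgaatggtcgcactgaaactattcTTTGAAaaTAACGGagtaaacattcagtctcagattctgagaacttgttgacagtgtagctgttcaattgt
Ku80: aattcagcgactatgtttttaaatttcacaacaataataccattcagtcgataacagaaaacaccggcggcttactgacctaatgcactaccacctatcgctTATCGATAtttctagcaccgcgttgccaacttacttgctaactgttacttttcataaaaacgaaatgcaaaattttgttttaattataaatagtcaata
Fancm: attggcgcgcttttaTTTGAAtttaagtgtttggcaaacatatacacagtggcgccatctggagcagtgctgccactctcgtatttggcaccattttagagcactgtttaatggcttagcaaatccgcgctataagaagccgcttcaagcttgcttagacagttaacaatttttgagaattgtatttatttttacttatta
mus81: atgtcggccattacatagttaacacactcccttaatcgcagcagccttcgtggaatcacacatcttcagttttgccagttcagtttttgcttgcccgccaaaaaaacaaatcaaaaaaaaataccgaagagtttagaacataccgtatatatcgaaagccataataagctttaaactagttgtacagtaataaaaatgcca
Msh6: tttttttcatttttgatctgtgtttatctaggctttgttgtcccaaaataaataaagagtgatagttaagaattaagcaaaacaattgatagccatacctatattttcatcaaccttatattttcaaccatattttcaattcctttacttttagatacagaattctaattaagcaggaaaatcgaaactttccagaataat
lok: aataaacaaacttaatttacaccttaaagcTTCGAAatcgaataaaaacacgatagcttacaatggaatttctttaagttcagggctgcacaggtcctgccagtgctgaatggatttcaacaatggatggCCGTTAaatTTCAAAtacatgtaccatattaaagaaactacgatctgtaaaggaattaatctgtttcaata
PolQ: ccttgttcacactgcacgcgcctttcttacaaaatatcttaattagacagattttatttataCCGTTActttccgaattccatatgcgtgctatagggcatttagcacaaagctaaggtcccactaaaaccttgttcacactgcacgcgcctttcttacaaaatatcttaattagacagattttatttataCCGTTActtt

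The grp window held the CHR word TTTGAA 30 bp and the Myb word TAACGG 38 bp to the right of the summit, with 2 bases between them. In the lok window a Myb word began 30 bp and a CHR word 39 bp to the right of the summit, with 3 bases between them, and another CHR word lay 70 bp to the left. The Ku80 window had a DREF word that began 2 bp from the summit and no Myb or CHR word. At PolQ the same Myb word began at -38 and again at 91 bp, 129 bp apart. Fancm had 1 CHR word at -85 bp, and the mus81 and Msh6 windows held none of the words searched.

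Of the 34 repair genes, 22 (64.7%) were bound, against 35.6% of all protein-coding genes. Their signal was mostly moderate. Over the 22 bound repair genes the strongest promoter peak had a median signal of 180.1 and a range of 107.5 to 1283, against a median of 224.2 over all 4966 bound genes. A summit among the 1525 strongest called peaks lay at 8 of the 34 repair genes, against 11.8% of all protein-coding genes. The 22 bound genes had 22 distinct summits, so no 2 of them were counted through the same strongest peak. These counts are given without a test, because the list was chosen with results of these data known.

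Many of these genes face a neighbour. A divergent promoter has another protein-coding gene's TSS within 1000 bp pointing away on the other strand. It was present at 24 of the 34 repair genes, against 5052 of all 13945 protein-coding genes. Of these 24 genes, 15 were bound (against 60.1% of all genes with a divergent promoter), a share near that background. Of the 10 repair genes without one, 7 were bound, against 21.7% of all such genes. These 7 were grp, Claspin, Ku80, PolQ, spn-B, Pms2 and Fancm, and mre11 and Fancd2 were among the 3 that were not. The strongest peak of 16 of the 22 bound genes had a TSS of another protein-coding gene within 500 bp, so it cannot be assigned to the repair gene alone. A called summit nearer to the gene than to any other annotated gene was found at 16 of the 34 repair genes, against 26.2% of all protein-coding genes. Bound genes without such a summit were grp, tefu, nbs, Gen, Xpc and phr.

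**Figure D1:**
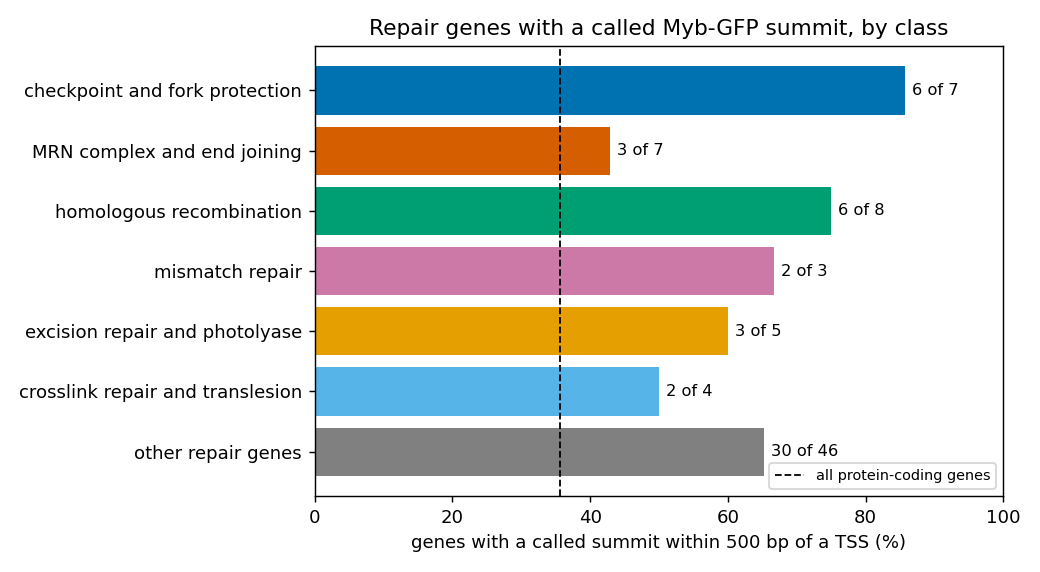
Share of genes with a called summit within 500 bp of a TSS (horizontal axis, %), for the 6 classes of repair genes and for 46 other repair genes, with counts beside the bars. The dashed line is the share of all protein-coding genes, 35.6%, and the checkpoint bar is the longest with 6 of 7.

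Checkpoint and fork protection genes were bound in 6 of 7 cases. Over all protein-coding genes the bound share was 35.6%. The class had 4 of 5 with a divergent promoter (60.1% of all such genes) and 2 of 2 without one (21.7%). Its count fell to 4 of 7 at 250 bp, where homologous recombination had 6 of 8. It was also 4 of 7 with only summits nearer to the gene than to any other, where homologous recombination had 5 of 8. Both settings lost grp and tefu. The strongest peak of all 34 genes was at grp (FBgn0261278, dm6 2L from 16680054 to 16699926, plus strand), which encodes the fly Chk1 kinase. Its signal was 1283, rank 234 of the called set, with 648.3 in replicate 1 and 646.3 in replicate 2. The summit lay in an intron, 462 bp downstream of a grp TSS and 54 bp from a TSS of squ, a piRNA pathway gene that overlaps grp. With a window of 250 bp grp was therefore not bound.

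The Chk2 kinase gene lok (FBgn0019686, dm6 2L from 20061422 to 20064381, plus strand) had 2 called summits. The stronger, with a signal of 971.4 and 541.2 and 434.3 in replicates 1 and 2, lay 197 bp upstream of lok and 145 bp from the TSS of barr, a condensin subunit gene that points away. A second summit with a signal of 526.2 lay 2 bp downstream of the lok TSS. The kinases that act above Chk1 and Chk2 had weaker peaks. The ATM gene tefu had a signal of 183.3, with 94.6 in replicate 1 and 98.6 in replicate 2 at a summit 120 bp away, and its summit was closer to the chaperone gene Hsc70-4.

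The ATR gene mei-41 had the weakest peak of the 22 bound genes, with a signal of 107.5 and 66.1 and 44.1 in replicates 1 and 2. Its summit lay 77 bp upstream of its TSS and 183 bp from that of TH1, a gene of the polymerase-pausing complex NELF. Among the 22 bound genes only mei-41 lacked a summit among the 6100 strongest of replicate 2. The gene for the ATR partner ATRIP, mus304, had a signal of 373.9 (172.6 and 200.4 in replicates 1 and 2), with its summit 91 bp upstream of the TSS and 149 bp from that of the RNA polymerase III gene Polr3D. Claspin, whose product lets ATR activate Chk1, had 208.5 (99.1 and 106.8), at a summit in its 5' UTR, 57 bp downstream of the TSS, with no other gene's TSS within 500 bp. Rad9, a subunit of the sliding clamp that activates ATR, was the gene of this class that was not bound. A pooled peak of 45.1 lay 309 bp downstream of its TSS, in coding sequence.

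**Figure D2:**
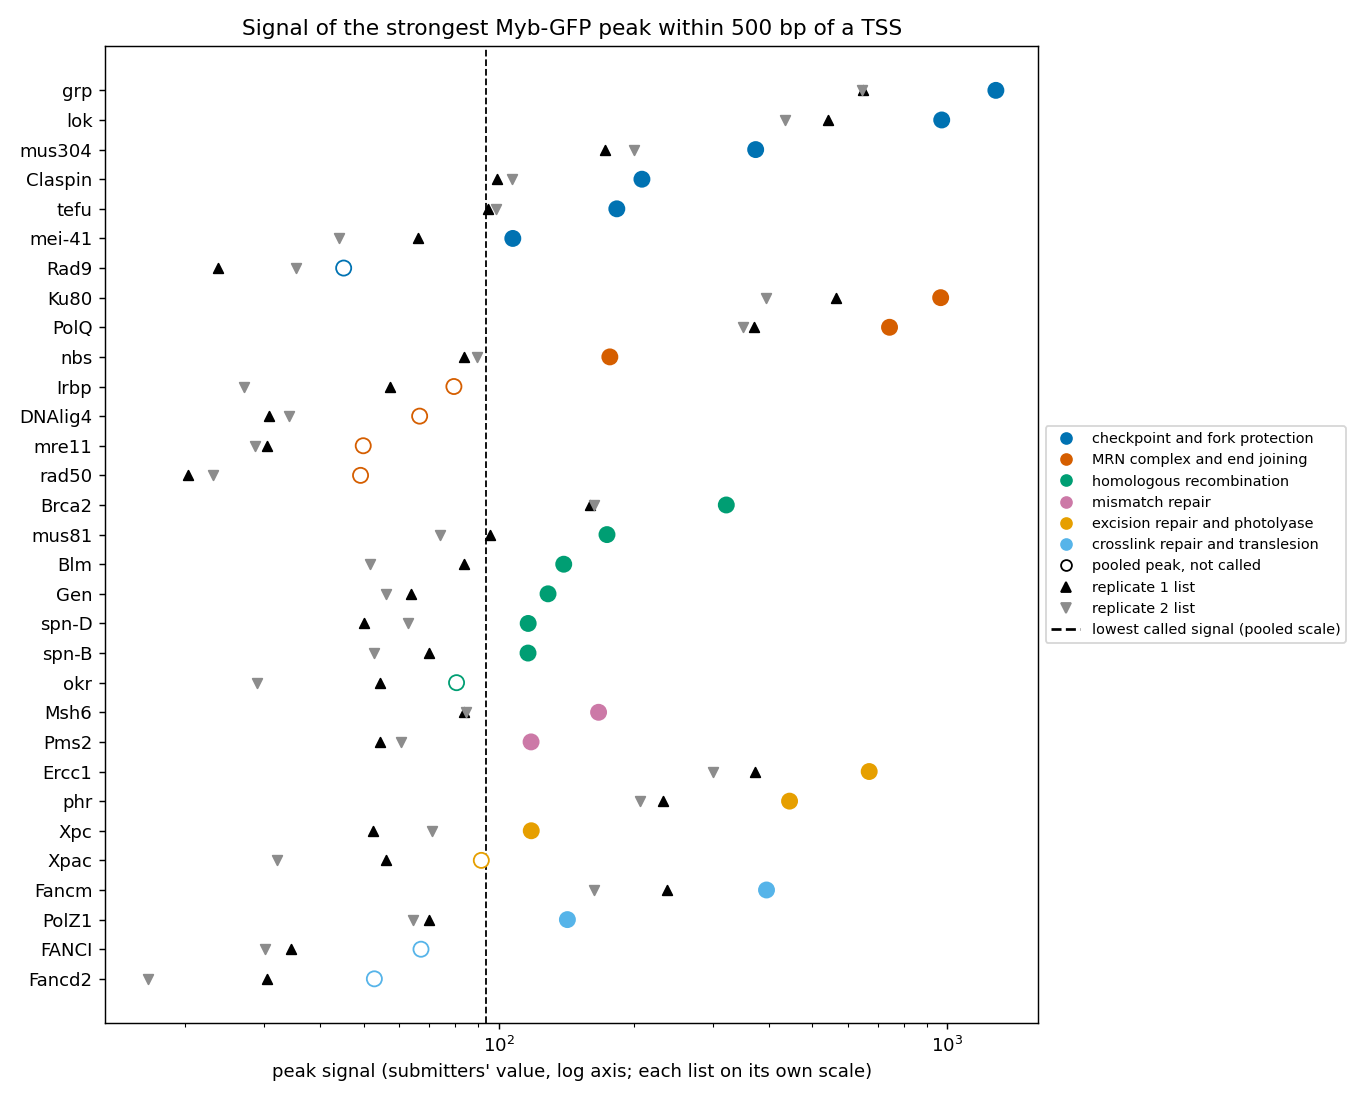
Peak signal (horizontal log axis, submitters' value) of the strongest peak within 500 bp of a TSS for 31 of the 32 repair genes that have one in the pooled list (the other is counted in the text and not drawn), grouped by class. Large circles give the pooled peak, filled where it was called, and triangles give each replicate's own list; grp, lok and Ku80 lie farthest to the right, and Xpac lies just left of the dashed line at 93.9.

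Double-strand break repair genes were bound in 9 of 15 cases, 3 of 7 in end joining and the MRN complex and 6 of 8 in homologous recombination. These shares are 42.9% and 75% for the 2 groups, against 35.6% of all protein-coding genes. Of the 11 genes with a divergent promoter 6 were bound, against 60.1% of all such genes. Of the 4 without one 3 were bound, against 21.7%. The bound genes of end joining and the MRN complex included strong peaks. Ku80 (FBgn0041627, dm6 2L from 15768630 to 15771159, minus strand), a subunit of the ring that caps broken ends, had a signal of 966.2, with 565.5 in replicate 1 and 394.3 in replicate 2. Its summit lay 26 bp upstream of the TSS and no other gene's TSS was within 500 bp. Irbp, the gene for its partner Ku70, was not bound. Its pooled peak had a signal of 79.5, with 57.4 in replicate 1 and 27.0 in replicate 2, and lay 73 bp from the TSS of its neighbour mgr and 99 bp upstream of Irbp.

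PolQ (FBgn0002905, dm6 3R from 12705523 to 12712299, minus strand), which encodes the polymerase of end joining through short homologies, had a signal of 743.2 and 370.8 and 351.0 in replicates 1 and 2. Its summit lay 323 bp upstream of the TSS, in a local tandem repeat with a period of 129 bp, the spacing of its Myb words, that covers 332 bases, from 134 bp left to 197 bp right of the summit. All 171 of the 31-base stretches in the PolQ window occurred more than 1 time on the 6 arms, and every copy was within 2000 bp of the summit. None of the windows of the other 21 bound genes held a repeated 31-base stretch, and only 3 of 4246 called promoter windows had them in most of their length. How reads from such copies were placed is not given in the sources used here, and its part in the PolQ signal was not tested.

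Of the MRN genes, whose products form the complex that first trims broken ends, nbs was bound with a signal of 176.9 (83.8 and 89.7 in replicates 1 and 2), 68 bp from the TSS of the Integrator gene defl. The other MRN genes, mre11 and rad50, had pooled peaks of 49.9 and 49.2 and were not bound. DNAlig4, the ligase of end joining, was not bound either, with a pooled signal of 66.6 (30.8 and 34.2 in replicates 1 and 2) at a summit 22 bp from the TSS of CG11164. Subunits of the same complex therefore differed in their calls, both for the Ku pair and for the MRN complex. The MRN call rests on the nbs summit, which lay 161 bp upstream of nbs and so nearer to defl. Irbp, which was not called, ranked 4962 in replicate 1 and 12991 in replicate 2, so its call depends on the threshold.

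In homologous recombination the bound genes other than Brca2 had signals under 224.2, the median of all bound genes. None of the 8 genes had a summit among the 1525 strongest called peaks, against 11.8% of all protein-coding genes. With only 8 genes this count cannot be told apart from that share. Brca2 (FBgn0050169, dm6 2R from 24526172 to 24529581, plus strand), which acts in strand exchange, led with 321.6, rank 1534 and so just outside those 1525. It had 159.8 and 163.4 in replicates 1 and 2, with its summit 27 bp upstream of its TSS and 56 bp from that of CG4612. The recombination genes spn-D and spn-B were both bound. The signal of spn-D was 116.3, with 50.03 in replicate 1 and 62.8 in replicate 2. That of spn-B was 116.2, with 70.01 in replicate 1 and 52.8 in replicate 2 at a summit 105 bp away. The Rad54 translocase gene okr was not bound, with a pooled signal of 80.5 and 54.3 and 28.9 in replicates 1 and 2.

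The genes mus81, Blm and Gen were bound, each with a signal under the median of all bound genes. The junction nuclease gene mus81 (FBgn0040347, dm6 X from 941075 to 943229, plus strand) had 174.3 (95.6 and 74.0 in replicates 1 and 2), 72 bp upstream of its TSS and 198 bp from that of CG3704. The helicase gene Blm had 139.6 (83.5 and 51.7), and a second summit of 93.9 that ranked 6100, the last of the called set. Gen, another junction nuclease gene, had 128.8 (63.9 and 56.1) with its summit nearer to the signal recognition particle gene Srp54k.

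Mismatch repair genes were bound in 2 of 3 cases. Over all protein-coding genes the bound share was 35.6%. The class had 1 of 1 with a divergent promoter (60.1% of all such genes) and 1 of 2 without one (21.7%). With 3 genes the class cannot be ranked beside these shares. Msh6 (FBgn0036486, dm6 3L from 15154233 to 15158562, minus strand), which acts in the recognition of mismatches, had 167.0 (83.7 in replicate 1 and 84.7 in replicate 2 at a summit 119 bp away). Its summit lay 256 bp upstream of its TSS and 282 bp from that of the splicing gene Prp31. Pms2, which acts after recognition, had 118.1 (54.5 and 60.5) at 28 bp upstream of its TSS.

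Excision repair and photolyase genes were bound in 3 of 5 cases, each at a divergent promoter where the strongest summit was nearer to the neighbour. All 5 genes of this class had a divergent promoter, and the bound share was near the 60.1% of all genes with one. Ercc1 (FBgn0028434, dm6 2R from 14852941 to 14853948, plus strand), a subunit of the nuclease that cuts beside a lesion, had 669.5 (372.3 and 300.1 in replicates 1 and 2). That summit lay 260 bp upstream of Ercc1 and 28 bp from the TSS of SMC2, a condensin gene like barr. A second called summit of 264.4 lay 61 bp upstream of Ercc1, and this lower value is the signal with a window of 250 bp. The other subunit of the nuclease, mei-9, had no peak within 500 bp in the called, pooled or replicate lists. The photolyase gene phr had 444.9 (232.8 and 206.5), 90 bp upstream of its TSS and 58 bp from that of CG30383. Xpc, which encodes a lesion sensor, had 118.2 (52.5 and 70.8), 49 bp from the TSS of CG8152. Xpac, the gene for the lesion verifier XPA, was just under the called set with a pooled signal of 91.5, rank 6251, and 56.1 and 32.1 in replicates 1 and 2.

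Crosslink repair and translesion genes were bound in 2 of 4 cases. Over all protein-coding genes the bound share was 35.6%. The class had 1 of 2 with a divergent promoter (60.1% of all such genes) and 1 of 2 without one (21.7%). With 4 genes the class cannot be ranked beside these shares. Fancm (FBgn0038889, dm6 3R from 21482325 to 21487444, plus strand), a DNA translocase of the Fanconi pathway, had 395.3 (236.6 and 163.3 in replicates 1 and 2), 245 bp upstream of its TSS with no other gene's TSS within 500 bp. The clamp genes Fancd2 and FANCI, whose products work as a pair, were both not bound, with pooled signals of 52.8 at Fancd2 and 67.1 at FANCI. FANCI had 34.4 in replicate 1 and 30.1 in replicate 2. PolZ1, the catalytic subunit gene of translesion polymerase zeta, had 142.3, at rank 4086 in replicate 1 and 4701 in replicate 2, with its summit 27 bp upstream of its TSS and 218 bp from that of the glycolysis gene Gapdh1.

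**Figure D3:**
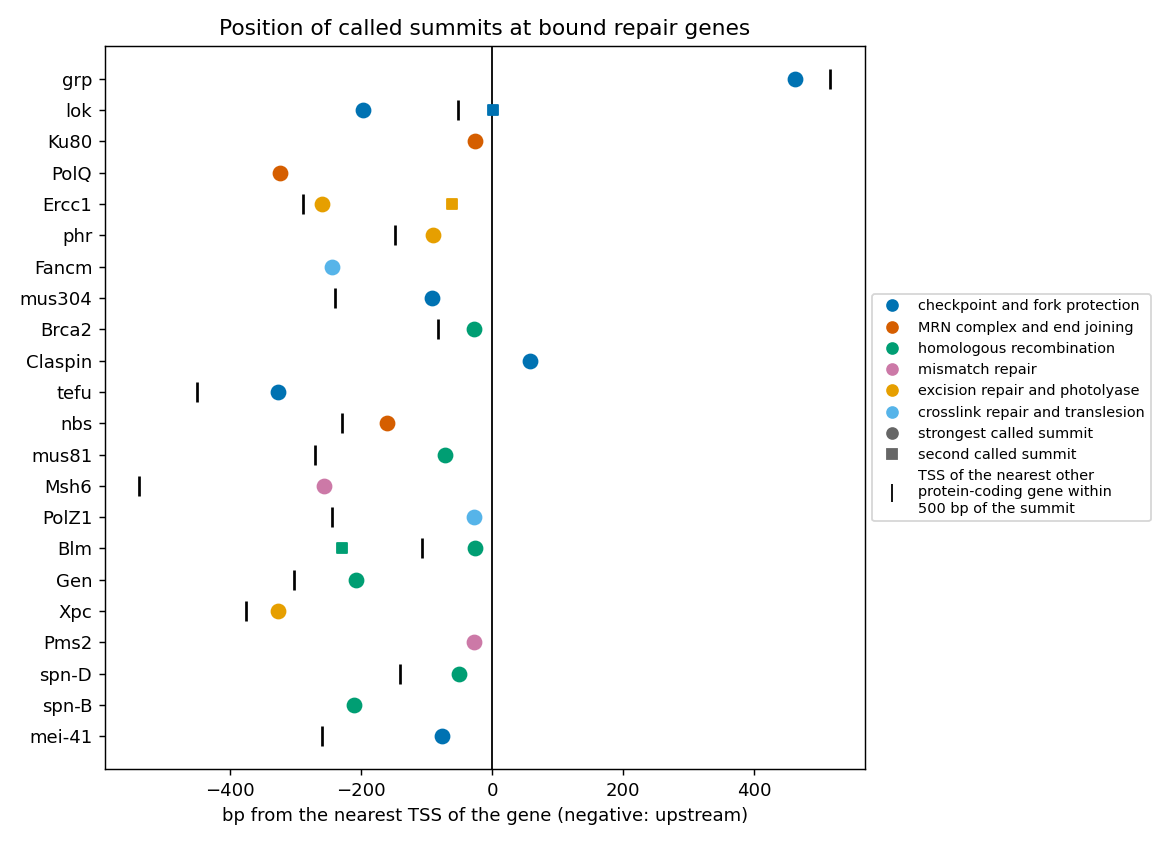
Position of called summits (horizontal axis, bp from the nearest TSS of the gene, negative upstream) at the 22 bound repair genes, ordered by signal from grp at the top. Circles are strongest summits, squares second summits and black ticks the nearest TSS of another protein-coding gene; 20 of the 22 circles lie upstream and those of grp and Claspin downstream.

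The strongest summit lay upstream of the nearest TSS of the gene at 20 of the 22 bound repair genes, and at 87.2% of all bound genes. The median distance was 126 bp for the repair genes and 80 bp for all bound genes. Counts for the classes are small, between 3 and 8 genes, and differences between classes were not tested.

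The called set was made from both replicates, and its 6100 peaks were the strongest of the list pooled from their alignments. The likeness of the replicates at bound genes is therefore a description of the set and no independent check. Summits within 100 bp were found in both replicate lists for 19 of the 22 bound genes, and the ratio of replicate 1 to replicate 2 signal ran from 0.742 at Xpc to 1.62 at Blm. Over 5801 called peaks matched in the same way, the middle 90% of ratios ran from 0.554 to 1.66. Spearman's rho was 0.911 over the 19 repair gene peaks, which share libraries, and 0.843 over all matched peaks. A summit among the 6100 strongest of both replicates lay at 21 of the 34 repair genes, against 31.7% of all protein-coding genes. Without being called, Irbp, okr and Xpac had a summit among the 6100 strongest of replicate 1 and none among those of replicate 2. Their ratios of replicate 1 to replicate 2 signal were 2.12, 1.88 and 1.75.

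**Figure D4:**
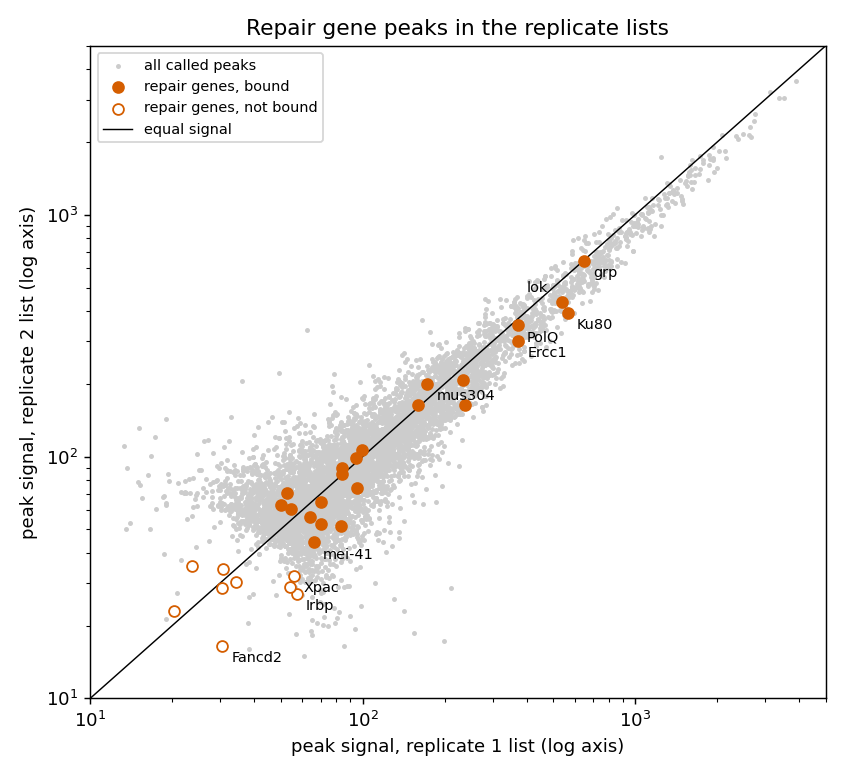
Signal of the strongest promoter peak of 31 repair genes in replicate 1 (horizontal log axis) and replicate 2 (vertical log axis), each replicate on its own scale. Grey points are the 5801 of 6100 called peaks with a summit within 100 bp in both replicate lists. Filled points are bound and open points are not bound genes; grp lies on the line of equal signal, while Xpac, Irbp and Fancd2 are among those below it, with lower signal in replicate 2.

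Of the 12 genes that were not bound, 10 had a peak within 500 bp in the relaxed pooled list, as did 32 of the 34 repair genes against 59.1% of all protein-coding genes. These 10 pooled signals ran from 45.1 at Rad9 to 91.5 at Xpac, all under the called minimum of 93.9. By their own label the relaxed lists also hold background, so such a peak is not a call.

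Words of Myb-MuvB subunits were looked for at all 22 strongest summits. Within 100 bp of the strongest summit a Myb or CHR word was found at 8 of 22 bound repair genes (36.4%), against 55.2% of 4246 called promoter peaks. The Myb word was at grp, lok and PolQ, or 13.6% against 19.8%, and the CHR word at 7 genes, or 31.8% against 45.0%. By class, checkpoint genes had 4 of 6 (grp, lok, mus304 and Claspin), MRN and end joining 2 of 3 (nbs and PolQ) and crosslink repair 2 of 2 (Fancm and PolZ1). The homologous recombination, mismatch repair and excision repair genes had 0 of 6, 0 of 2 and 0 of 3. Within 150 bp spn-B, Brca2 and phr each had a CHR word, which gave 2 of 6 in homologous recombination and 1 of 3 in excision repair. PolZ1 held 3 CHR words. The DREF word, a site of a housekeeping promoter factor, was at Ku80 and mei-41 (9.09% against 13.2%), and an E2F word at Claspin (4.55% against 4.59%). Within 50 bp, a Myb or CHR word was at 31.8% of bound repair genes and at 31.7% of called promoter peaks, and within 150 bp at 11 of 22 bound repair genes and 67.2% of called promoter peaks. A word is a match of letters and not a shown site.

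Another list of 46 repair genes, written from textbook knowledge without the listed members, was bound in 30 cases (65.2%, against 35.6% of all protein-coding genes). These were also chosen with results known, and no test was made. The list contained 13 genes without a divergent promoter, of which 11 were bound, against 21.7% of all such genes. It held 33 with one, of which 19 were bound, a share near the 60.1% of all genes with a divergent promoter. PolI, the gene of translesion polymerase iota, had a signal of 2853, rank 47 of the called set, with 1466 in replicate 1 and 1394 in replicate 2. That is above the 1283 of grp. DNAlig3 followed with 1075 (551.4 and 515.3), then hay, the helicase gene XPB of TFIIH, with 1048 (559.4 and 490.2), Rev1, the gene of a translesion polymerase, with 555.1 (301.0 and 252.7), and tos, the exonuclease gene Exo1, with 426.9 (217.2 and 203.6). The complex that Rad9 belongs to was bound at its other genes, Rad1 (99.8) and Hus1-like (107.5), and at Rad17 (104.3), whose product loads it. Each of these signals was near the called minimum of 93.9. Each summit also had another gene's TSS within 500 bp, of Sws1, ctrip and BigH1 in turn. The damage response transcription factor gene p53 had 204.5. The fork protection gene timeout had 239.1. RPA1, the gene of the large subunit of the single-strand binding protein, had 145.5 at a summit 500 bp upstream, at the edge of the window and shared with Mcm2, while RPA2 and RPA3 were not bound.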

How the data were processed

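Peaks of 2 replicates of Myb-GFP chromatin immunoprecipitation from whole embryos were read from 4 deposited dm6 lists in a 10-column format without header. Per the labels' file listing deposited with each replicate, relaxed lists were made by the authors per replicate and on pooled alignments with a control, and the called set was selected by the irreproducible discovery rate. The deposited peak signal is the authors' value, on an unstated scale, and was used to describe and rank peaks. The sources used here name no aligner, peak caller or threshold. Lists on build dm3 were not used.

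TSSs were the transcript starts of Ensembl release 115, except those of transposable elements, 23581 positions. Summit positions are the interval start plus the deposited offset. Peaks of different lists were matched within 100 bp. For replicates the strongest peak within 500 bp is given, with its distance where it lay more than 100 bp from the called summit. Sequences came from the RefSeq genome of the same assembly. Python 3.11.15, pandas 2.3.3, numpy 2.4.6 and scipy 1.17.1 were used, and summit assignment and word search were tested on simulated data.

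The members, classes and lists were chosen with earlier results of these data known, and of 57 other names written, 11 matched no gene. No test was run on members or lists. Some of the genes counted are not reported here by name. Full values are given for the 8 bound members with the highest signal, the strongest of each class and 5 of the 6 strongest unbound members by pooled signal, and for the 5 strongest other genes; further genes of the other list (Rad1, Hus1-like, Rad17, p53, timeout and the RPA genes) were named after their values were seen. Alternatives were other windows, 1 TSS per gene, the 3050 strongest called peaks, each replicate alone, 1 summit per interval, the relaxed pooled list and unshared summits. Repeated 31-base stretches were counted after the PolQ window had been seen.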

Additional observations from a re-analysis of the deposited data

How the results depend on the processing

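The count of 22 bound repair genes kept within 1.5 times under 8 of 9 alternatives. Only a count of all 34 genes could have passed this limit upward, so it says little about settings with more peaks. Counts follow with the share of all protein-coding genes in brackets. There were 17 at 250 bp (30.9%), 23 at 1000 bp (38.9%), 22 with 1 TSS per gene (33.7%) and 22 with 1 summit per interval (35.6%). There were 25 without replicate 2 (36.5%), 21 without replicate 1 (33.9%), 32 in the relaxed pooled list (59.1%) and 16 with unshared summits (26.2%). The 22 genes were all among the 25. They were among the 32 by construction, because the called peaks are the strongest of the pooled list. With the 3050 strongest called peaks it was 11, and double-strand break repair fell to 3, homologous recombination to 1, crosslink repair to 1, mismatch repair to 0, the other repair genes to 16 and all protein-coding genes to 3017. In the relaxed pooled list end joining and MRN genes reached 7, double-strand break repair 14, crosslink repair 4 and all protein-coding genes 8245. At 250 bp checkpoint genes had 4 and mismatch repair 1, and with unshared summits checkpoint genes had 4 and excision repair 1. These settings use fewer or more peaks, a narrower window or, for unshared summits, only summits nearer to the gene than to any other. Depth is unknown, so no counting error could be given, and no control, accessibility or expression data were analysed. No paired analysis was possible because the series has 1 group.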

Other observations

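Of the repair genes with 2 called summits (lok, Ercc1 and Blm), lok and Ercc1 share their divergent promoters with condensin genes, barr and SMC2. At lok the stronger summit (971.4) lay 197 bp upstream of lok, beyond the TSS of barr, and the weaker (526.2) lay 2 bp downstream of the lok TSS. These 2 TSSs are 52 bp apart, so the weaker summit was also the closer one to the barr TSS. At Ercc1 the summit nearer to SMC2 had 669.5 and that nearer to Ercc1 264.4. In both pairs the stronger summit was the farther from the repair gene, while at Blm the stronger (139.6) was the nearer. This was noticed after the values were seen and was not tested.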
